A study of Mus musculus with 6 samples.

Results

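The 10 genes described here encode parts of the contractile apparatus of smooth muscle, or a secreted protein that cells make alongside it: Acta2, Actg2, Tpm1, Tpm2, Myh11, Myl9, Tagln, Cnn1, Cald1 and Ctgf, which the count tables list under its newer symbol Ccn2. They were picked by name, with their response to GSK-126 in these same libraries already known, and they are 10 of the 55341 genes in the tables. All 10 passed the filter on low counts, which kept 16729 genes. Because the choice of genes used the contrast of GSK-126 with DMSO, their fold changes are given as a description and not as a test. Only genes outside the 10 are tested. The lists of those other genes were also chosen with earlier results of these data known, so counts over a list are descriptions too.

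The cells were mouse cerebellar granule neurons (CGNs) from pooled litters of CD1-IGS mice at P6-P8, both sexes included, purified as progenitors on a Percoll gradient and grown in culture with AraC, which kills dividing cells. The 2 groups of 3 libraries each differed in what was added to the dish: DMSO, the vehicle, or GSK-126, which inhibits EZH2, the methyltransferase that places H3K27me3, a mark of silenced genes. The sample labels name DIV3 (day 3 in vitro) and cerebellar tissue. The methods describe cultured cells, with the inhibitor added on that day and RNA taken later, and the dose is not given in the sources used here. Replicates are numbered 1 to 3 in both groups, and libraries with the same number deviated together, so they are called pair 1, pair 2 and pair 3.

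Serum response factor (SRF) is a transcription factor that binds a short A/T-rich element called the CArG box. With its partners of the myocardin family it drives genes of smooth muscle and of the actin cytoskeleton: myocardin is made mainly in muscle, and MRTF-A and MRTF-B are held in the cytoplasm by monomeric actin. Ternary complex factors such as ELK1 are rival partners of SRF at immediate early genes. In the brain, smooth muscle genes are best known from the mural cells of blood vessels, pericytes and vascular smooth muscle, and several are also made by fibroblasts of the meninges and by cells that spread on a culture dish.

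The libraries held 7407189 to 13092763 counts on genes, and the 10 genes together took 0.149% to 0.266% of them. Markers of granule neurons and of other cells were both present: the summed level of 10 granule neuron markers was 3060 to 6412 CPM (a gene's count as a share of the effective library size), that of 8 astroglial markers 2403 to 8096 CPM and that of 13 fibroblast markers 8468 to 11953 CPM. The replicates differed in both groups: astroglial markers were at 7742, 2428 and 4310 CPM in DMSO replicates 1 to 3. In GSK-126 replicates 1 to 3 they were at 8096, 2403 and 4305 CPM. Where leaving out a pair changed the call of a named gene, this is stated. Without a term for the pairs, no gene of the 16729 passed an adjusted p of 0.05 in edgeR's quasi-likelihood test in either direction, while 296 lay higher and 369 lower where p under 0.05 was taken unadjusted, and DESeq2 called 19 higher and 2 lower. With the replicate number as a block, edgeR called 561 genes higher (3.35%) and 851 lower (5.09%).

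Coordinates are those of GENCODE M21 on GRCm38, whose unique symbols match those of the tables. Acta2, the smooth muscle alpha actin, lies at chr19:34241090-34255590 on the minus strand, and Actg2, the gamma actin of visceral smooth muscle, at chr6:83512905-83536265 on the minus strand. Tpm1 (chr9:67022590-67049406) and Tpm2 (chr4:43514711-43523765), both on the minus strand, encode tropomyosins, coiled coils that run along actin filaments. Myh11 (chr16:14194535-14291372, minus strand) encodes the myosin heavy chain of smooth muscle, and Myl9 (chr2:156775420-156781658, plus strand) a regulatory light chain of myosin. Tagln (chr9:45929619-45936058, minus strand), Cnn1 (chr9:22099216-22109630, plus strand) and Cald1 (chr6:34598500-34775473, plus strand) encode transgelin, calponin 1 and caldesmon, which bind actin filaments. Ccn2 (chr10:24595442-24598683, plus strand) encodes connective tissue growth factor, a secreted protein of the extracellular matrix. All 10 are annotated as protein coding, and counts are over their exons. Of the 1988 bp of Tagln exon, 1349 bp lie opposite exons of Pcsk7 and Gm48529, and 665 of the 2861 bp of Ccn2 exon lie opposite Gm15270. Since the strand setting of the counting is not given in the sources used here, reads in those stretches cannot be assigned to one strand with certainty.

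Promoter sequence was given for 6 of the 10 genes (RefSeq, GRCm38.p6, from 250 bases before to 50 after each annotated start), namely Acta2, Tpm1, Tpm2, Myl9, Cnn1 and Cald1. Each window was searched on both strands for the CArG box and for GGAATG. The CArG box was taken strictly as CC, then 6 letters A or T, then GG, so variants with any other letter were not counted. GGAATG holds the core letters bound by TEAD factors, the partners of the coactivator YAP at genes such as Ccn2. A CArG box of this strict form was found in 1 of the 6, Myl9, and in 1.81% of the 27025 genes with a promoter. GGAATG was found in 3 of the 6, Acta2, Tpm1 and Cald1, and in 16.6% of all genes. The sites are shown because they are the places in these windows where either pattern matched exactly. The capitals mark the match, in the direction of transcription. Distances are from the RefSeq start, which can differ from the end of the GENCODE span given above. The Acta2 and Tpm1 sites lie inside that span.
Myl9, CArG box starting 161 bases before the start, chr2:156775293-156775322, plus strand: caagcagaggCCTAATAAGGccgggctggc
Acta2, GGAATG starting 146 bases before the start, chr19:34255502-34255531, minus strand: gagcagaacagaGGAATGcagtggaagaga
Tpm1, GGAATG starting 56 bases before the start, chr9:67049252-67049281, minus strand: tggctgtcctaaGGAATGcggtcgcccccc
Cald1, GGAATG starting 153 bases before the start, chr6:34598339-34598368, plus strand: gagcatgcctagGGAATGacaggcatctgc
The 10 letters of the Myl9 match overlap no GGAATG, and no window of the 6 held both. A further motif, TATAAA, occurred in Cald1 alone among the 6, and in 15.7% of all genes. A match is a description of letters and not of binding, and elements farther from the start, or in the first intron, lie outside these windows.

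Across the 10 genes, 9 were higher in GSK-126 on average and 1, Myh11, was lower. The median log2 fold change was 0.38 without the block and 0.40 with it, beside -0.0071 and -0.0056 over all tested genes. All values below are CPM scaled by TMM factors, and all fold changes are log2 of GSK-126 over DMSO.

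Acta2 was the most abundant of the 10 genes in CPM together with Tpm1. Its level was 293, 394 and 516 CPM in DMSO replicates 1 to 3, and 454, 507 and 633 CPM in GSK-126 replicates 1 to 3. Each GSK-126 library lay above its own pair, but DMSO 3 lay above GSK-126 1 and GSK-126 2, so the groups overlapped. The log2 fold change was 0.41 (SE 0.23) without the block and 0.43 (SE 0.08) with it.

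Actg2 was the less abundant of the smooth muscle actins. It was at 23.2, 41.0 and 32.2 CPM in DMSO and at 37.2, 40.5 and 40.1 CPM in GSK-126. The 3 GSK-126 libraries lay close together, while DMSO 2 was the highest of all 6, so pair 2 showed no increase (log2 ratio -0.02) and pair 1 the widest (0.68). The log2 fold change was 0.29 (SE 0.21) without the block and 0.32 (SE 0.13) with it.

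Tpm1 was at 366, 344 and 467 CPM in DMSO and at 429, 427 and 491 CPM in GSK-126. Tpm2 was at 35.2, 40.6 and 58.5 CPM in DMSO and at 56.8, 57.0 and 68.5 CPM in GSK-126. In both tropomyosins every pair was higher in GSK-126 and DMSO 3 reached above GSK-126 1 and 2. The log2 fold change of Tpm1 was the smallest of the 9 genes that were higher, 0.19 (SE 0.16) without the block and 0.20 (SE 0.07) with it. That of Tpm2 was 0.44 (SE 0.20) and 0.46 (SE 0.11).

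Myl9 was at 75.6, 38.4 and 94.6 CPM in DMSO and at 101, 69.1 and 111 CPM in GSK-126. Replicate 2 was the lowest library of each group, and the log2 ratios of the pairs spread from 0.24 in pair 3 to 0.85 in pair 2. The log2 fold change was 0.43 (SE 0.32) without the block and 0.49 (SE 0.10) with it. Myh11, the heavy chain that partners it in smooth muscle, was near the floor of detection. It was at 3.00, 1.40 and 3.30 CPM in DMSO and at 2.12, 1.62 and 1.87 CPM in GSK-126, which is 14 to 38 counts per library. It was lower in pairs 1 and 3 and higher in pair 2, and its log2 fold change of -0.45 (SE 0.42), or -0.40 (SE 0.41) with the block, was about as large as its error.

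Tagln was at 232, 250 and 338 CPM in DMSO and at 370, 354 and 439 CPM in GSK-126. Every GSK-126 library lay above every DMSO library. The log2 fold change was 0.51 (SE 0.18) without the block and 0.52 (SE 0.07) with it. Cald1 was at 261, 274 and 402 CPM in DMSO and at 355, 343 and 504 CPM in GSK-126, with all 3 pairs higher (log2 ratios of 0.45, 0.33 and 0.33) and DMSO 3 above GSK-126 1 and 2. Its log2 fold change was 0.36 (SE 0.22) without the block and 0.37 (SE 0.07) with it. Cnn1 was at 6.81, 11.7 and 11.5 CPM in DMSO and at 11.1, 11.3 and 14.8 CPM in GSK-126. Like Actg2 it was higher in pairs 1 and 3 and level in pair 2 (log2 ratio -0.04), and its log2 fold change was 0.31 (SE 0.26) without the block and 0.33 (SE 0.19) with it.

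Ccn2 had the largest fold change of the 10. It was at 171, 236 and 240 CPM in DMSO and at 292, 318 and 325 CPM in GSK-126. The groups did not overlap, and GSK-126 1, the lowest of its group, lay above DMSO 3, the highest of the other. The log2 fold change was 0.53 (SE 0.16) without the block and 0.55 (SE 0.08) with it.

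**Figure D1:**
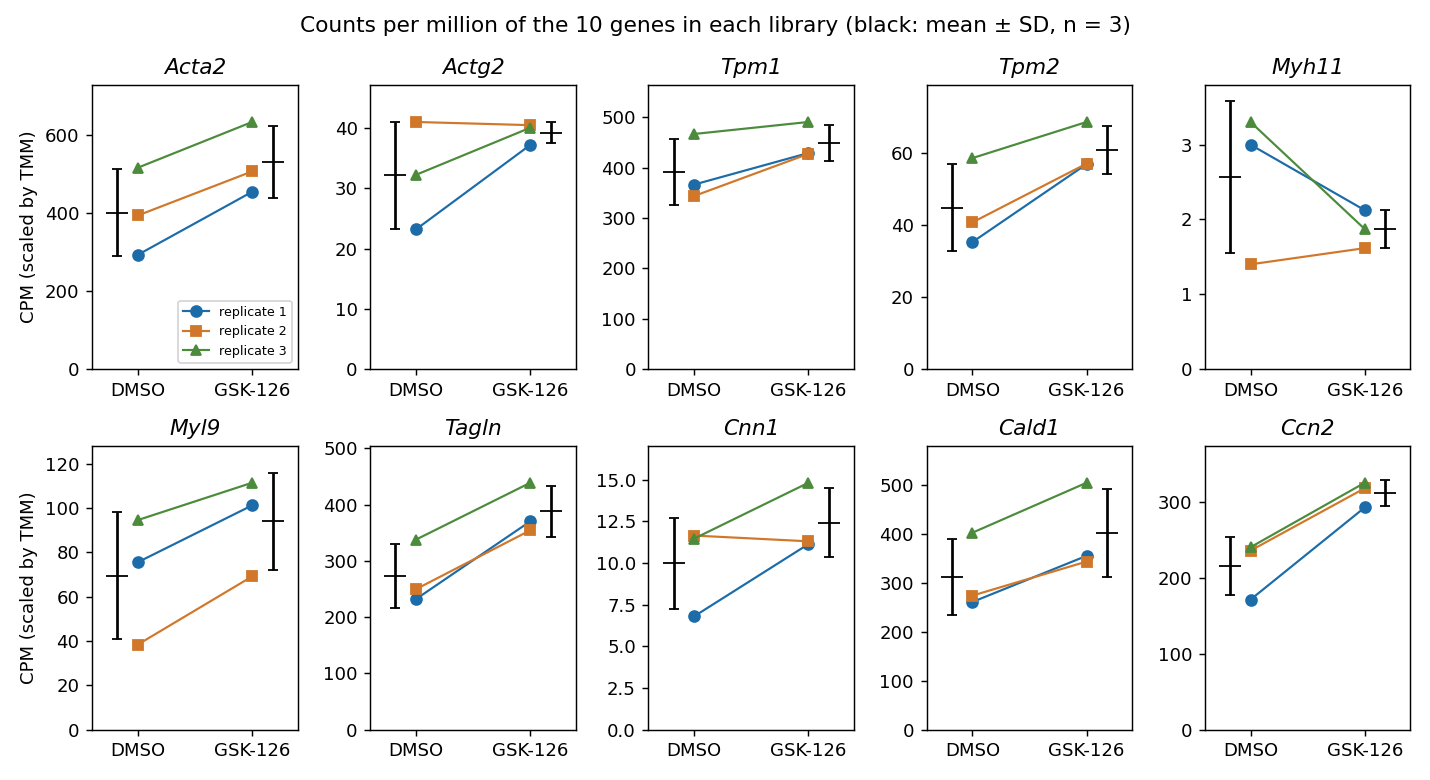
Level in CPM, scaled by TMM factors, of each of the 10 genes in DMSO and GSK-126, with a line joining the libraries that share a replicate number and black bars for mean ± SD (n = 3 per group). The lines slope up in all 3 pairs for 7 genes, Tagln and Ccn2 alone have groups that do not overlap, and Myh11 lies at or below 3.30 CPM throughout.

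In counts over the 10 genes, 7 were higher in all 3 pairs (19.5% of all tested genes were), and 2, Tagln and Ccn2, had groups that did not overlap with GSK-126 higher (4.72% of all tested genes). Without the block none of the 10 passed an adjusted p of 0.05, as no gene did (0%), and the same 2 were at an unadjusted p under 0.05 with GSK-126 higher (1.77% of all tested genes). With the block 6 passed, Acta2, Tpm2, Myl9, Tagln, Cald1 and Ccn2, all higher (3.35% of all tested genes were), and none was called lower (5.09% of all tested genes were), and the same 6 passed in DESeq2 with the block. Tpm2 dropped out when pair 1 or pair 2 was left out, which left 5. Nothing is read from these counts, since the genes were chosen with this contrast known.

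Without the block, single libraries moved most of these fold changes, though none changed sign. Leaving out DMSO 3, the highest DMSO library for most of the genes, raised the log2 fold change of Acta2 to 0.63, Tpm1 to 0.34, Tpm2 to 0.68, Myl9 to 0.72 and Cald1 to 0.59. Leaving out GSK-126 3 lowered that of Acta2 to 0.26, Tpm1 to 0.13, Cnn1 to 0.17 and Cald1 to 0.16. Leaving out DMSO 1 lowered Acta2 to 0.24, Actg2 to 0.12 and Cnn1 to 0.12. Without DMSO 2, Myl9 was at 0.14, Tpm1 at 0.11 and Actg2 at 0.50. Myh11 was at -0.74 without DMSO 2 and at -0.21 without DMSO 3. Tagln (0.41 to 0.69) and Ccn2 (0.41 to 0.62) moved by less than 1.5 times with any 1 library left out.

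**Figure D2:**
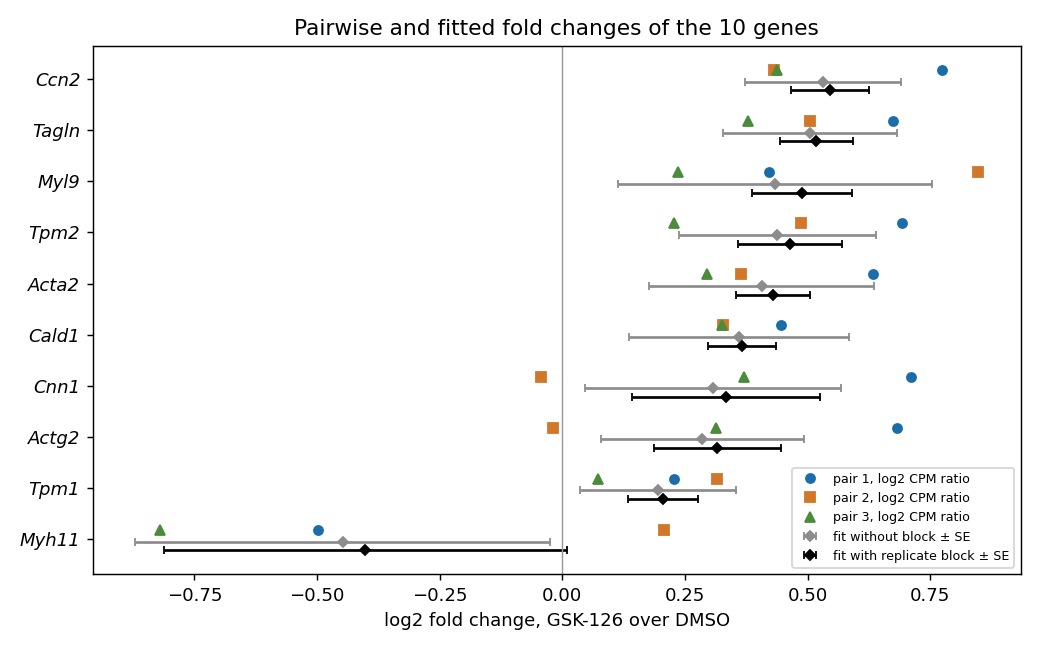
Log2 fold change of GSK-126 over DMSO for each of the 10 genes: coloured symbols are the log2 CPM ratios of the 3 pairs, and diamonds with bars are the edgeR estimates ± SE without the block (grey) and with it (black). The estimates nearly coincide for each gene, from -0.45 for Myh11 to 0.55 for Ccn2, while the bars shorten with the block for every gene except Myh11, where they stay at about 0.42 and 0.41.

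The spread among the DMSO cultures was for most genes wider than the difference within pairs. For 9 of the 10 genes the ratio of the highest to the lowest DMSO library exceeded the mean ratio within pairs. Acta2, for example, varied 1.76-fold among the DMSO libraries and differed 1.35-fold on average within pairs, and Ccn2 was the gene for which the 2 ratios came the other way, at 1.40-fold and 1.46-fold. The variation had a shared shape: replicate 3 was the highest DMSO library for 8 of the 10 genes and the highest GSK-126 library for 8, and DMSO 1 was the lowest of all 6 libraries for 7. The summed level of the 10 genes was 1467, 1629 and 2163 CPM in DMSO and 2110, 2129 and 2629 CPM in GSK-126. The difference within pairs was largest in pair 1 (log2 ratio 0.52), smaller in pair 2 (0.39) and smallest in pair 3 (0.28). Replicate 3 was the highest of each group in the sum, and DMSO 3 exceeded GSK-126 1 and 2.

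The genes did not all share that shape to the same degree. The Pearson correlation of each gene's log2 CPM with the mean of the other 9, over the 6 libraries, was 0.99 for Tpm2, 0.98 for Tagln, 0.96 for Cald1, 0.95 for Acta2, 0.92 for Tpm1, 0.80 for Ccn2, 0.77 for Cnn1, 0.61 for Myl9, 0.47 for Actg2 and -0.19 for Myh11. These are descriptions over 6 points, which fall into 2 treatments and 3 pairs. The 5 genes at the top share the high replicate 3, Myl9 departs in replicate 2, where it is low, and Actg2 and Cnn1 depart in DMSO 2, where they are at their DMSO maximum.

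Per kb of exon the order of the 10 genes changed. In DMSO, Acta2 was at 183 ± 50.9 CPM per kb (SD, n = 3) and Tagln at 137 ± 28.5. Ccn2 followed at 75.3 ± 13.5, Tpm1 at 60.5 ± 10.1 and Myl9 at 59.8 ± 24.6 CPM per kb. Cald1 was at 25.9 ± 6.5, Actg2 at 20.6 ± 5.73 and Tpm2 at 15.4 ± 4.19 CPM per kb, Cnn1 at 3.65 ± 1.00 and Myh11 at 0.338 ± 0.135. The DMSO libraries did not overlap at 3 steps down this order, from Tagln to Ccn2, from Tpm2 to Cnn1 and from Cnn1 to Myh11. All other neighbours overlapped, Myl9 and Cald1 only through Myl9 in DMSO 2. The annotated exon length joins all isoforms, so levels of genes with many isoforms, such as Tpm1 and Cald1, are understated on this scale.

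Set beside related genes outside smooth muscle, several of the 10 were at lower levels per kb. Actb, the cytoplasmic beta actin, stood above Acta2 by a median of 3.56 (2.84 to 5.47 over the 6 libraries) in CPM per kb, and Acta2 above Actg2 by 8.91 (6.80 to 11.3). Myh9, the non-muscle myosin heavy chain, stood above Myh11 by 141 (64.2 to 199), and Cnn2, the calponin of non-muscle cells, above Cnn1 by 14.7 (9.94 to 18.9). The reverse held for Tagln, and for Myl9 against 1 of its relatives: Tagln stood above Tagln2 by 2.86 (2.38 to 3.29) and Myl9 above Myl12a by 5.22 (4.22 to 5.69). The last ratio depends on length, as the joined exons of Myl12a cover 3360 bp and those of Myl9 1162 bp. Of the Myl12a exons, 462 bp overlap exons of Myl12b on the same strand, so the level of Myl12a may be understated. A further light chain, Myl12b, has 2 gene IDs under its symbol and so no exon length here, and at 127 to 149 CPM it had more counts than Myl9 in every library. Tpm1 stood above Tpm2 by 3.48 (3.21 to 4.67), but a further tropomyosin, Tpm4, stood above Tpm1 by 2.20 (2.07 to 2.46). A further calponin, Cnn3, had a mean log2 CPM of 8.66, above the 7.19 of Cnn2. Ccn2 stood above its relative Ccn1 by 1.50 (1.19 to 1.78).

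**Figure D3:**
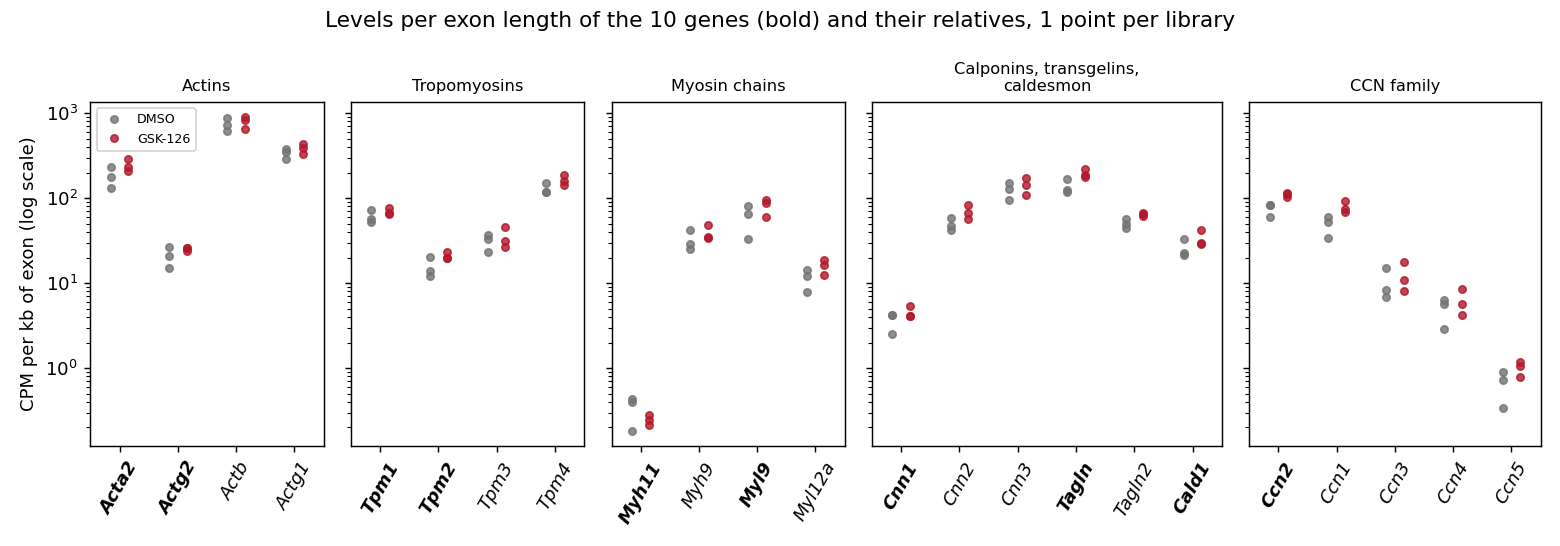
CPM per kb of exon (log scale) of the 10 genes, in bold, and of related genes of the same families, 1 point per library in DMSO (grey) and GSK-126 (red). Myh11 and Cnn1 lie far below Myh9 and Cnn2, whereas Tagln and Myl9 lie above Tagln2 and Myl12a in every library.

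SRF and its cofactors, from a list of 7 genes, did not pass the test in either direction, with or without the block. Their log2 fold changes are given without the block unless stated. Srf was at 38.5, 52.8 and 48.9 CPM in DMSO and at 41.3, 52.0 and 44.9 CPM in GSK-126, a log2 fold change of -0.02 (SE 0.16). Mrtfa, which encodes MRTF-A, had a log2 fold change of -0.04 (SE 0.18) and Mrtfb, which encodes MRTF-B, of -0.18 (SE 0.16). Myocd, the gene of myocardin, was at 0.461 to 1.56 CPM in DMSO and 0.606 to 2.59 CPM in GSK-126, with a log2 fold change of 0.46 (SE 0.66). Of the ternary complex factors, Elk1 was the only one of the 7 genes whose groups did not overlap (47.2 to 53.5 CPM against 58.4 to 63.8 CPM). Its log2 fold change was 0.27 (SE 0.12) without the block. With the block it was 0.27 (SE 0.09), with an adjusted p of 0.088 in edgeR. Elk3 and Elk4 had log2 fold changes of 0.10 (SE 0.30) and -0.17 (SE 0.18).

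Cytoskeletal SRF targets, a list of 28 genes made by many cell types, leaned in the same direction as the 10 genes. All 28 had a positive log2 fold change, with a median of 0.24 against -0.0071 for all tested genes, and 23 were higher in all 3 pairs, as 19.5% of all tested genes were. These are descriptions, since this list too was chosen with earlier results of these data known. In edgeR with the block 8 rose and none fell. Cnn2 rose by 0.49 (SE 0.07, adjusted p = 0.000258 in edgeR with the block), from 104 to 145 CPM in DMSO to 142 to 205 CPM in GSK-126. Tpm4, a tropomyosin of non-muscle cells, rose by 0.34 (SE 0.07), Myl12a, a non-muscle myosin light chain, by 0.50 (SE 0.11), and Tagln2, a transgelin of non-muscle cells, by 0.37 (SE 0.08). The other 4 that rose were Myh9, Actn1, Tln1 and Itgb1, with log2 fold changes of 0.27 to 0.30. Those of Myh9, Actn1 and Tln1 were not called without pair 1, where 5 genes of the list rose, and 11 did without pair 2. That of Itgb1 was lost without pair 3 (adjusted p = 0.0669 in edgeR with the block). Actb, the most abundant of the list, had a log2 fold change of 0.11 (SE 0.07) with the block and an adjusted p of 0.36 in edgeR.

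Of 19 tested genes in a list of other smooth muscle genes, 13 had a positive log2 fold change, with a median of 0.20, and 1 rose with the block. That gene was Csrp1, an actin-associated LIM protein, at 99.4, 105 and 128 CPM in DMSO and 150, 142 and 177 CPM in GSK-126, a log2 fold change of 0.50 (SE 0.08, adjusted p = 0.000277 in edgeR with the block). Of 6 tested sarcomere genes of striated muscle none passed the test, and the median log2 fold change was -0.20. The most abundant of them, Acta1, Ttn and Tnnc1, were at 6.78 CPM or less in every library.

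Genes that SRF serves with ternary complex factors gave 2 called genes of 9. Fos rose by 0.73 (SE 0.14, adjusted p = 0.00222 in edgeR with the block), from 19.4 to 26.4 CPM in DMSO to 29.4 to 58.4 CPM in GSK-126, and Junb by 0.40 (SE 0.10, adjusted p = 0.0165). Both encode AP-1 proteins. Without pair 2 neither was called, with adjusted p = 0.0748 for Fos and 0.116 for Junb in edgeR with the block, and without pair 1 Junb was not called either, with adjusted p = 0.061. Egr2 had 0 counts in all 6 libraries.

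Among relatives of Ccn2 and genes known as targets of YAP and TEAD, 3 of 12 tested rose with the block and none fell, and the median log2 fold change was 0.26. Ccn1, the CCN family member most like Ccn2 in its use as a YAP readout, was at 67.9, 120 and 105 CPM in DMSO and 149, 188 and 139 CPM in GSK-126. Its groups did not overlap, and its log2 fold change was 0.72 (SE 0.10, adjusted p = 0.000107 in edgeR with the block). Crim1, a membrane protein that binds growth factors, rose by 0.54 (SE 0.09). Amotl2, an angiomotin that binds YAP, rose by 0.27 (SE 0.08), a call lost without pair 1 (adjusted p = 0.254) and without pair 2 (adjusted p = 0.161 in edgeR with the block), and in DESeq2 with the block (0.0951). Of 8 genes that respond to TGF-beta, 4 rose and none fell. Among them Thbs1, thrombospondin 1, rose by 0.50 (SE 0.09), Ltbp2, a matrix protein of the latent TGF-beta binding family, by 0.51 (SE 0.11) and Fn1, fibronectin, by 0.29 (SE 0.07). The call for Fn1 was lost without pair 1 (adjusted p = 0.0828) and without pair 3 (adjusted p = 0.0519 in edgeR with the block). In the DMSO libraries Ltbp2 varied from 22.2 to 66.7 CPM, with replicate 3 highest, as it was for most of the 10 genes.

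Markers of the cells that could carry these genes were measured beside them. In bulk RNA, fewer cells of a type and less RNA per cell cannot be told apart. Of 8 tested mural cell markers 7 had a positive log2 fold change (median 0.33) and 2 rose with the block: Pdgfrb, the receptor that recruits pericytes, by 0.36 (SE 0.08, adjusted p = 0.00459 in edgeR with the block), and Anpep, a surface peptidase, by 0.35 (SE 0.09), a call lost without pair 1 (adjusted p = 0.321 in edgeR) and in DESeq2 with the block (adjusted p = 0.0519). The levels of mural markers spread widely. Besides these 2, Rgs5 was at 18.9 to 66.0 CPM over the 6 libraries, Vtn at 36.1 to 77.6, Notch3 at 32.5 to 60.8 and Cspg4 at 16.7 to 34.6 CPM. Ndufa4l2 was at 1.73 to 3.88 CPM and Abcc9 at 2.26 CPM or less, while Kcnj8 and Higd1b were under the filter, at 1.15 and 0.401 CPM or less. The summed mural level was 278 to 432 CPM in DMSO and 318 to 515 CPM in GSK-126, with log2 ratios of 0.33, 0.20 and 0.26 in pairs 1, 2 and 3.

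Fibroblast markers were far more abundant. Their sum was 8468, 8751 and 11000 CPM in DMSO and 10266, 9243 and 11953 CPM in GSK-126, with log2 ratios of 0.28, 0.08 and 0.12 within pairs. The sums of the fibroblast markers, the mural markers and the 10 genes were each highest in replicate 3 of either group. Of 13 tested, 10 had a positive log2 fold change (median 0.09), and 3 rose and 1 fell with the block. Fbln2 and Aebp1, matrix proteins, rose by 0.53 (SE 0.08) and 0.48 (SE 0.07). Col1a2, a chain of type I collagen, rose by 0.22 (SE 0.07) at an adjusted p of 0.0498 in edgeR with the block, and that call was lost without any 1 of the pairs. Slc6a13, a transporter of meningeal fibroblasts, fell by 0.61 on the log2 scale (SE 0.19), from 4.38 to 47.6 CPM in DMSO to 2.59 to 25.7 CPM in GSK-126, a call lost without pair 1 (adjusted p = 0.654) and without pair 2 (adjusted p = 0.0998 in edgeR with the block), and in DESeq2 with the block (0.194). The part of mural cells and fibroblasts in the levels of the 10 genes was not tested.

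Granule neuron markers moved the other way. Their sum was 3924, 6412 and 4419 CPM in DMSO and 3060, 4935 and 3307 CPM in GSK-126, log2 ratios of -0.36, -0.38 and -0.42 in the pairs. With the block 7 of 10 fell and 1 rose, and 6 fell without pair 3, where Zic1 was lost (adjusted p = 0.0695 in edgeR). Gabra6, a GABA-A receptor subunit of mature granule neurons, fell by 1.19 on the log2 scale (SE 0.10, adjusted p = 1.53e-07 in edgeR with the block), Etv1, a transcription factor of their maturation, by 1.17 (SE 0.10), Cbln3, a cerebellin, by 0.90 (SE 0.08), and Rbfox3, the gene of NeuN, by 0.59 (SE 0.07). Tubb3, a neuronal tubulin, rose by 0.40 (SE 0.11), a call lost without pair 2 (adjusted p = 0.287 in edgeR with the block). The part of this shift in the levels of the 10 genes was not tested.

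Sums over the markers of other cell types differed within pairs to varying degrees. The astroglial sum differed little within pairs (log2 ratios of 0.06, -0.02 and -0.0017), although S100b and Gdf10 rose, by 0.56 (SE 0.11) and 0.72 (SE 0.18). The call for Gdf10 was lost without pair 1 (adjusted p = 0.165 in edgeR with the block) and in DESeq2 with the block (0.0828). The endothelial sum was 74.6, 76.4 and 98.0 CPM in DMSO and 95.8, 58.2 and 92.0 CPM in GSK-126, and none of 7 tested markers passed, among them Cdh5 (-0.22, SE 0.12), Kdr (-0.07, SE 0.21) and Flt1 (0.67, SE 0.25). Without pair 3, Flt1 was called higher (adjusted p = 0.0258 in edgeR with the block). The microglial sum was higher in GSK-126 in every pair (log2 ratios of 0.22, 0.46 and 0.30), at 149 to 320 CPM in DMSO and 205 to 373 CPM in GSK-126. All 6 microglial markers had a positive log2 fold change and 1 rose, C1qa, a complement component, by 0.48 (SE 0.09). The oligodendrocyte sum was also higher in every pair (log2 ratios of 0.07, 0.28 and 0.20), and of 6 markers 1 rose, Mbp, a myelin protein, by 0.28 (SE 0.08), a call lost without pair 2 (adjusted p = 0.279 in edgeR with the block). None of 4 tested markers of cycling cells passed, with log2 fold changes of 0.01 (SE 0.08) for Top2a, 0.09 (SE 0.09) for Mki67 and -0.17 (SE 0.14) for Ccnb1.

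**Figure D4:**
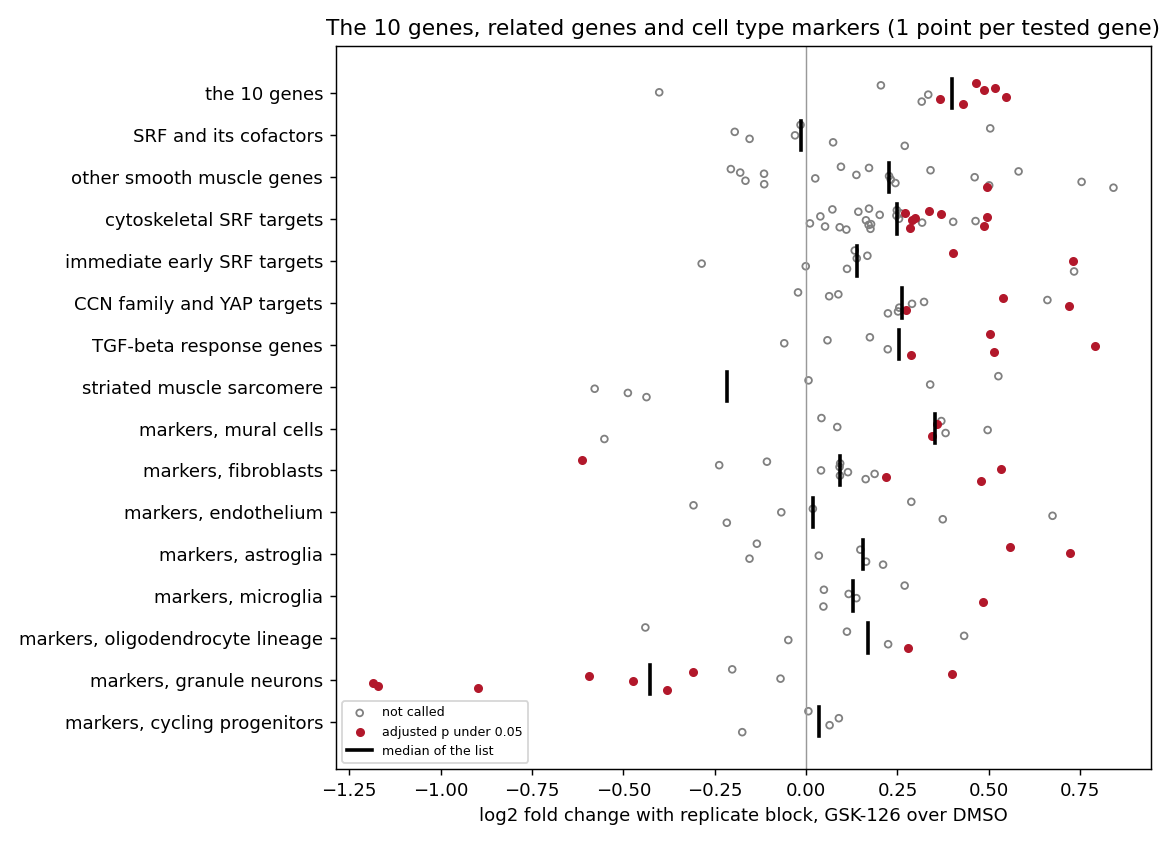
Log2 fold change with the block (GSK-126 over DMSO) of every tested gene in each list, 1 point per gene, filled red where the adjusted p was under 0.05, with a bar at the median of the list. The medians of the 10 genes (0.40), mural markers (0.35), CCN and YAP genes (0.26), TGF-beta response genes (0.26) and cytoskeletal SRF targets (0.25) lie farthest to the right, SRF and its cofactors lie at -0.02, and granule neuron markers lie at -0.43.

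The genes whose levels ran most nearly parallel to the 10 were ranked by Pearson's r over the 6 libraries between their log2 CPM and the mean standardised log2 CPM of the 10, among 15374 genes with a mean log2 CPM over 1. The leading 10 were Tnfrsf11b (0.994), Cavin2 (0.989), 1700001G11Rik (0.989), Rftn1 (0.988), A730063M14Rik (0.986), Col1a2 (0.986), Gsto1 (0.984), Rhov (0.983), Cdkn2aip (0.983) and Crim1 (0.981). Rhov, at 0.923 to 3.34 CPM, and A730063M14Rik, at 1.73 to 3.34 CPM, lay near the floor of detection. Among genes with a mean log2 CPM over 3, the leading 10 kept 8 of these and lost Rhov and A730063M14Rik. Tnfrsf11b, which encodes osteoprotegerin, was at 3.92, 4.29 and 9.13 CPM in DMSO and 8.87, 8.40 and 12.7 CPM in GSK-126, low in DMSO 1 and 2 and high in replicate 3 of either group. Cavin2, a protein of caveolae, was at 26.4, 27.5 and 41.3 CPM in DMSO and 41.7, 40.4 and 49.0 CPM in GSK-126. In all 188 genes had an r over 0.9, among them Pdgfrb (0.956), Csrp1 (0.948), Myh9 (0.959) and Lmod1 (0.971), the last a leiomodin of smooth muscle. These coefficients rest on 6 libraries, which fall into 2 treatments and 3 pairs, and they carry no test.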

How the data were processed

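Expression was measured by poly-A RNA-seq in 6 CGN libraries, 3 DMSO and 3 GSK-126. The authors trimmed reads with Trimmomatic 0.38, aligned them to GRCm38 (mm10) with STAR 2.7.2b and counted reads on exons with HTSeq and the Gencode GTF of GRCm38.p4. They deposited raw counts per gene, with no normalization; the Gencode release number and strand setting are not given in the sources used here. Rows that name no gene held 58.7% to 60.7% of listed reads and were left out.

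Counts were fitted over all genes in R 4.3.3 with edgeR 4.0.16 (TMM, filterByExpr, quasi-likelihood test, Benjamini-Hochberg adjusted p under 0.05), without a block as the main design, since the study's methods name none. DESeq2 1.42.0 and a replicate block were alternatives. Deviations from the group means correlated at 0.56, 0.63 and 0.49 between libraries of the same number and at 0.0064 or less otherwise. Centring on means of 3 libraries pushes the other values down once the matched ones are positive, so only the matched values bear on the pairing. On these, the numbers, which come from the labels, were taken to pair the libraries. The biological coefficient of variation was 24.0% without the block and 9.74% with it. Replicates are cultures of pooled litters. No 2 libraries were copies (chi-square per degree of freedom of 8.40 or more). On simulated data with 199 genes of 16522 changed 2-fold, the fit without the block recovered 0 and the fit with it 192, with 9 false calls. Smaller changes, like those of the 10 genes, were not simulated.

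The 10 genes and all lists were chosen with earlier results of these data known. Named are all 10 genes, SRF and its cofactors, the 10 most parallel genes, and per list up to 4 called genes by smallest p with the block, or, with none, the 3 most abundant; 1 gene that this rule names is not reported here. Outside that rule, genes were named after their values were seen: Actb, Myh9, Actn1, Tln1, Itgb1, Egr2, Myl12b, Cnn3, Zic1, Tubb3, Lmod1, the mural markers beside Pdgfrb and Anpep, and those of the level ratios.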

Additional observations from a re-analysis of the deposited data

How the results depend on the processing

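The median log2 fold change of the 10 genes stayed positive under every alternative run. It ranged from 0.25 without DMSO replicate 1 to 0.60 without DMSO replicate 3, and from 0.34 to 0.46 with the block and 1 pair left out. No gene of the 10 changed sign under any of them. Over all genes, 0 were called in either direction in the main fit and with any library left out; DESeq2 called 19 higher and 2 lower, and edgeR with no filter 9 and 1. With the replicate block 561 and 851 were called, in DESeq2 with the block 359 and 604, and with pair 1, 2 or 3 left out 417, 337 and 558 higher and 671, 496 and 719 lower. Of the listed genes outside the 10, where the fit without a block called 0, the block called 28 higher and 8 lower, DESeq2 with the block 26 and 7, and the block with pair 1, 2 or 3 left out 19, 25 and 27 higher and 7 lower each time. Depth limited Myh11 most, with 14 to 38 counts per library. The cause of the remaining moves was not tested.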
